A study of Mus musculus with 2 samples.

Results

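The smooth muscle contractile genes described here are 10 genes chosen by symbol, Acta2, Actg2, Acta1, Myh11, Cnn1, Tagln, Des, Myl9, Smtn and Myocd. They are 10 of the 32285 genes in the count tables, and the rule that picks them uses no measured value. The cells came from mouse uteri taken 4 h after treatment and were made into droplet libraries that read the 3′ ends of transcripts. Animals of the DOX plus AMH group had received doxorubicin at 3 mg/kg with anti-Müllerian hormone (AMH) at 0.75 mg/kg, and animals of the DOX group had received doxorubicin at 3 mg/kg alone. Doxorubicin is an anthracycline that damages DNA, and both groups carry it, so no level here stands against an untreated uterus. Each group is 1 library made from the pooled uteri of 5 animals, and the spread between animals cannot be seen. Age and schedule are stated for the bulk samples of the series (postnatal day 25, dosed weekly 2 times). For the animals used here the labels give neither age nor strain. The question put to these genes was how their levels in muscle, in mural cells and elsewhere compared when the hormone was given with doxorubicin.

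After filtering, 6738 DOX plus AMH cells and 7343 DOX cells were kept, with median depths of 10101 and 13710 unique molecular identifiers (UMIs, 1 per captured transcript). The libraries shared 17 barcodes, 13 of them among kept cells. The members took 0.407% of the kept UMIs in DOX plus AMH and 0.284% in DOX. Levels are given as CPM, the gene's UMIs scaled to 1000000 UMIs of the same cells, and a log2 ratio is that of DOX plus AMH over DOX. Every 95% interval, exact Poisson for a CPM and exact binomial for a ratio or share, covers counting error only and leaves out the spread between cells and between pools. With 1 library per group there was no test and no p-value. A 3′ count is not scaled to transcript length, so each gene is compared between cells and not with other genes.

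Smooth muscle shortens when myosin pulls on filaments of actin. Phosphorylation of the myosin light chains switches the motor on, calponin and transgelin bind along the actin filaments, and desmin filaments tie the contractile lattice to the cell's anchoring sites. Many of these genes share a switch. Serum response factor binds CArG boxes near their promoters, and its coactivator myocardin, the product of Myocd, turns them on in smooth and cardiac muscle. In the uterus they mark the myometrium, the muscle wall that contracts at birth, and the walls of blood vessels.

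Promoter windows from 250 bases before to 50 bases after the annotated start were at hand for 6 of the 10 members, Acta2, Acta1, Cnn1, Des, Myl9 and Smtn, from RefSeq on build GRCm38.p6. The CArG box searched was a CC pair and a GG pair around 6 bases of A or T, a pattern that reads the same on both strands. It stood exactly in 2 of these 6 windows, and in 1.63% of the 32851 promoters of the same table. With at most 1 of the 6 middle bases allowed to be G or C, it stood in 3 of the 6, against 9.98% of all promoters. The 3 windows with a match are printed 5′ to 3′ on the gene's strand, to show the shared box in 2 actin genes and a myosin light chain gene, and capitals mark the matches. Acta2 lies at chr19:34255324-34255623 on the minus strand, Acta1 at chr8:123894726-123895025 on the minus strand and Myl9 at chr2:156775214-156775513 on the plus strand.
Acta2: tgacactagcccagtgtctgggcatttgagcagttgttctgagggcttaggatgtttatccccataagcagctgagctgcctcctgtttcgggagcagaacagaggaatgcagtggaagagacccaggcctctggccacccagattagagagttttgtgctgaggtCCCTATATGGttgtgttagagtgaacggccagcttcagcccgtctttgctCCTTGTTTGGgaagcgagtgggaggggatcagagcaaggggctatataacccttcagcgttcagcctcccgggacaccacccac
Acta1: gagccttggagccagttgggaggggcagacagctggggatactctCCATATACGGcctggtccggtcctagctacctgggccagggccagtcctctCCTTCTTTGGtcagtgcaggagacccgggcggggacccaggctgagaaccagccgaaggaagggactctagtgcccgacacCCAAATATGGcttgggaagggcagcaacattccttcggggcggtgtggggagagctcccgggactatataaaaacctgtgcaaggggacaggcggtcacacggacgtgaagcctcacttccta
Myl9: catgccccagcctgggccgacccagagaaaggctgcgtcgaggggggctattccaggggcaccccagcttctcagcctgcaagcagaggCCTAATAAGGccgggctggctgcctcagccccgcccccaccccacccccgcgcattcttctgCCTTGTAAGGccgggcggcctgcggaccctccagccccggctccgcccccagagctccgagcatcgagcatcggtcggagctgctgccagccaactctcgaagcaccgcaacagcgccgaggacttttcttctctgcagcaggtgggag
In the Acta2 window the matches CCCTATATGG and CCTTGTTTGG begin 84 and 34 bases before the start, each with 1 mismatch. Acta1 holds an exact match, CCAAATATGG, 73 bases before its start and 2 with a mismatch farther out. Myl9 holds an exact match, CCTAATAAGG, 161 bases before its start. A match describes the letters of the window and says nothing of binding in these cells. The windows of Cnn1, Des and Smtn held no match, which says only that these letters are not in those 300 bases.

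Cells were placed in classes from marker genes that include none of the 10 members. Smooth muscle cells were gated on Lmod1, Synpo2, Synm, Pgm5, Ldb3, Kcnmb1 and Pln, and mural cells, the pericytes and muscle cells of vessel walls, on Rgs5, Notch3, Kcnj8, Abcc9, Cspg4, Higd1b, Cox4i2, Ndufa4l2 and Gja4. The smooth muscle gate held 997 DOX plus AMH cells and 843 DOX cells, and the mural gate 246 and 159. Median depths in the smooth muscle gate were 9181 and 10562 UMIs, with mitochondrial shares of 6.77% and 8.23%. Stromal cells, gated on Pdgfra, Lum, Dcn, Tcf21, Dpt and Cxcl14, numbered 3634 and 4859. Gates of 50 or more cells in both libraries were compared, which adds epithelial, vascular endothelial, lymphatic endothelial, mesothelial and blood-derived cells. The 367 DOX plus AMH and 470 DOX blood-derived cells, which should make no contractile proteins, give the level of free RNA.

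All 10 members had their highest level in the smooth muscle gate in both libraries, and 10 of 10 were at least 10-fold over blood-derived cells there. The excess in CPM ran from 28.9-fold to 104-fold in DOX plus AMH and from 25.8-fold to 52.8-fold in DOX. In DOX plus AMH the mural gate came next for all 10, with Smtn there and in lymphatic endothelial cells apart by less than counting error. In DOX it came next for 7, while mesothelial cells for Actg2 and Acta1 and lymphatic endothelial cells for Smtn were as high within counting error. In the mural gate 8 members in DOX plus AMH and 6 in DOX were at least 10-fold over blood-derived cells. In none of the other 5 classes was any member 10-fold over them in CPM. In mean UMIs per cell, which does not allow for depth, some were. Myocd in mesothelial cells was 11.3-fold and 24.7-fold over blood-derived cells, and Smtn in lymphatic endothelial cells 12.6-fold and 13.2-fold. Acta1 in DOX mesothelial cells was 10.8-fold over them. Free RNA was nonetheless widespread: 56.7% of DOX plus AMH and 45.7% of DOX blood-derived cells, at median depths of 8419 and 8069 UMIs, held a UMI of Acta2. Their mean was 1.55 and 2.07 Acta2 UMIs per cell, against 97.2 and 98.7 per smooth muscle cell. Thinned to 2000 UMIs per cell, 17.9% and 17.1% of blood-derived cells still held one, against 97.6% and 99.5% of smooth muscle cells.

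**Figure D1:**
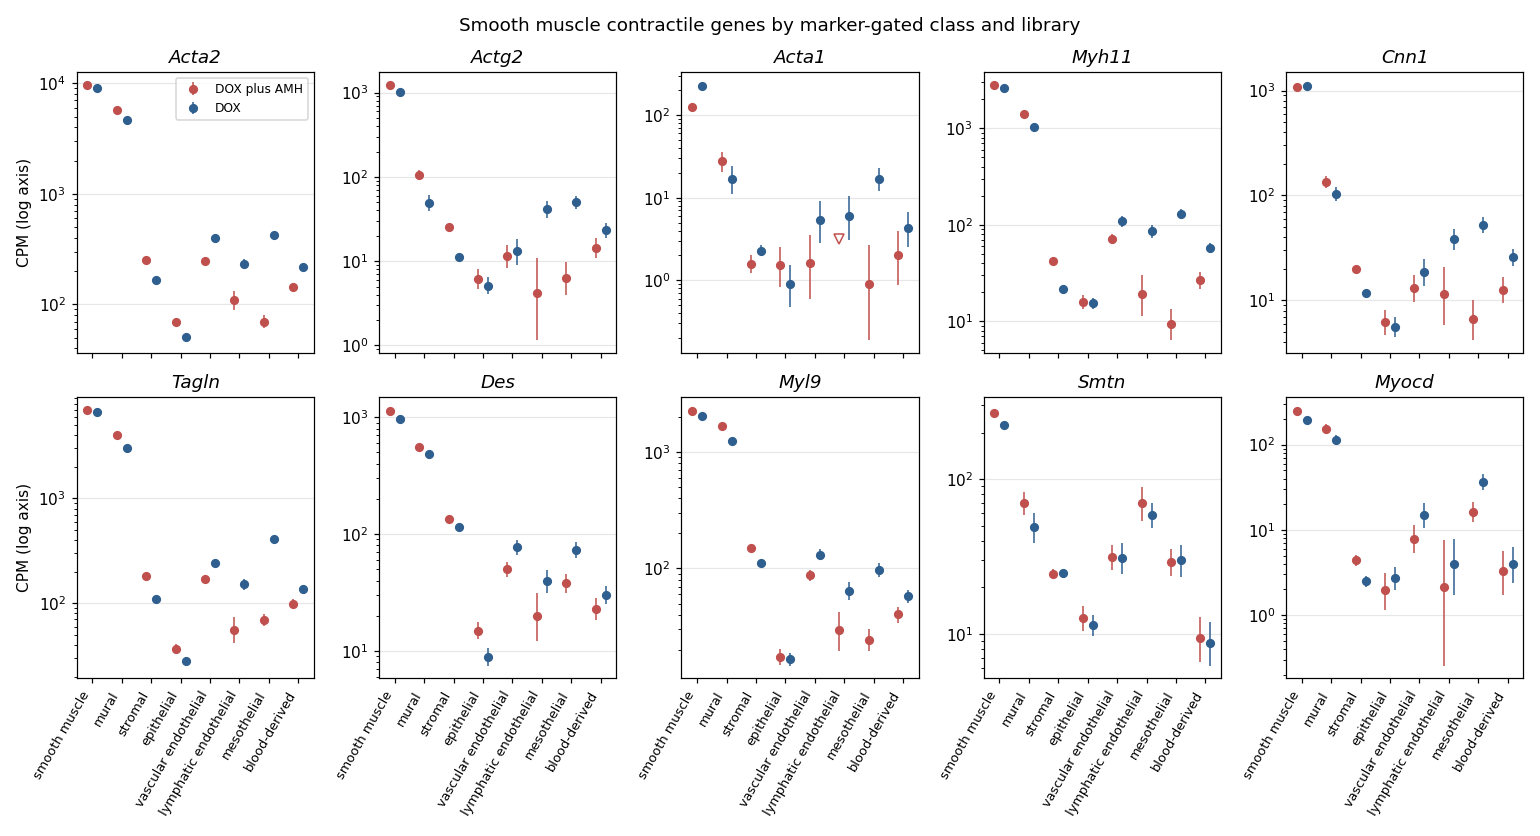
Level of each gene in CPM (log axis, a scale of its own in each panel) in 8 marker-gated classes, for DOX plus AMH (red, left) and DOX (blue, right), with exact 95% Poisson intervals. The open triangle is the level that 3 counts would give where no UMI was found; the smooth muscle points stand above all others, from 126 and 224 CPM for Acta1 to 9676 and 9049 CPM for Acta2.

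On mm10, with the strand in parentheses, the actin genes lie as follows: Acta2 on chromosome 19 from 34241090 to 34255590 (minus), Actg2 on chromosome 6 from 83512905 to 83536265 (minus), Acta1 on chromosome 8 from 123891769 to 123894751 (minus). The myosin genes are Myh11 on chromosome 16 from 14194535 to 14291372 (minus), Myl9 on chromosome 2 from 156775420 to 156781658 (plus). The genes of actin-binding proteins are Cnn1 on chromosome 9 from 22099216 to 22109630 (plus), Tagln on chromosome 9 from 45929619 to 45936058 (minus), Smtn on chromosome 11 from 3517523 to 3540612 (minus). The remaining members are Des on chromosome 1 from 75360329 to 75368579 (plus), Myocd on chromosome 11 from 65176561 to 65269989 (minus). Counts are deposited per gene, and no value belongs to an exon or a UTR alone.

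Of the actins, Acta2 encodes the alpha actin of smooth muscle, Actg2 the gamma actin of visceral muscle and Acta1 the alpha actin of skeletal muscle. In the smooth muscle gate Acta2 was 9676 CPM in DOX plus AMH and 9049 in DOX, and 96.9% and 97.6% of the cells held a UMI. In the mural gate it was 5780 and 4667 CPM, so both kinds of cell carried it in quantity. Actg2 was 1221 and 1016 CPM in the smooth muscle gate but 105 and 49.4 CPM in the mural gate, the sharpest drop of any member between these gates in DOX. The intervals of its 2 levels in the smooth muscle gate, 1199 to 1243 and 995.5 to 1037, do not overlap, yet the median cell held 6 UMIs in DOX plus AMH and 8 in DOX. Its UMIs were more concentrated in DOX plus AMH, where the top 10% of the cells held 54.3% of them, against 35.9% in DOX. Acta1 was 126 CPM in DOX plus AMH and 224 CPM in DOX, with UMIs in 25.9% and 33.9% of the gate's cells. It is the member carried by the fewest muscle cells in both libraries. The top 10% of the cells held 78.3% and 70.4% of its UMIs. No stretch of 90 bases in the last 500 bases of any of the 10 genes' GENCODE vM21 transcripts occurs in a transcript of another gene, so reads of the 3 actins can be told apart at their 3′ ends.

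Of the myosin subunits, Myh11 encodes the heavy chain of smooth muscle myosin and Myl9 a regulatory light chain. Myh11 was 2791 CPM in DOX plus AMH and 2578 in DOX in the smooth muscle gate, and 1402 and 1017 in the mural gate. In the other compared classes it was at most 131 CPM. Myl9 was 2247 and 2009 CPM in the smooth muscle gate and 1673 and 1245 in the mural gate. It differs from Myh11 in the stroma, where Myl9 was 150 and 112 CPM, above the 40.3 and 57.5 CPM of blood-derived cells, while Myh11 was 42.2 and 21.7 CPM in stromal and 26.7 and 57.8 CPM in blood-derived cells.

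The actin-binding members are calponin (Cnn1), which restrains myosin's motor on the filament, transgelin (Tagln, also called SM22) and smoothelin (Smtn), which marks contractile cells. Cnn1 was 1082 CPM in DOX plus AMH and 1116 in DOX in the smooth muscle gate, against 135 and 104 CPM in the mural gate. Tagln was 6913 and 6713 CPM in the smooth muscle gate and 4064 and 3028 in the mural gate, so it kept much more of its level in mural cells than Cnn1 did. Smtn was 270 and 225 CPM in the smooth muscle gate and 70.0 and 48.8 CPM in the mural gate. Smtn also stood out in lymphatic endothelial cells, at 69.7 CPM (66 UMIs in 52 cells) and 58.7 CPM (117 UMIs in 107 cells), against 9.33 and 8.73 CPM in blood-derived cells. A UMI of Smtn was found in 42.3% and 43.9% of lymphatic endothelial cells and in 7.90% and 4.68% of blood-derived cells. The annotation places genes on the opposite strand over Smtn (Gm11946, Gm11947), Tagln (Pcsk7, Gm48529), Des (Gm15179) and Acta1 (Gm20388), and the sources used here do not say how the counting treated strand.

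Desmin (Des) is the intermediate filament of muscle cells, and Myocd encodes myocardin, the coactivator that drives the other members. Des was 1132 CPM in DOX plus AMH and 965 in DOX in the smooth muscle gate, 556 and 484 in the mural gate and 134 and 115 in the stroma. Myocd was 245 and 197 CPM in the smooth muscle gate and 154 and 113 CPM in the mural gate. It was 16.3 and 36.7 CPM in mesothelial cells, the lining of the uterine surface, where 22.2% of 135 DOX plus AMH cells and 37.0% of 92 DOX cells held a UMI, against 1.63% and 2.34% of blood-derived cells. Thinned to 2000 UMIs the mesothelial shares were 3.70% and 5.49% and the blood-derived ones 0.597% and 0.457%.

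The smooth muscle gate took 71.4% of the Acta2 UMIs of kept DOX plus AMH cells and 69.6% of those of kept DOX cells. For Actg2, Acta1, Myh11, Cnn1 and Tagln its share lay between 71.8% and 82.0% in both libraries. Des and Smtn lay elsewhere to a larger extent: stromal cells held 27.3% and 43.0% of Des UMIs and 20.2% and 39.4% of Smtn UMIs. The stroma is the most numerous class, at 53.9% and 66.2% of the kept cells. Cells that passed no gate held 8.86% and 9.76% of Acta2 UMIs.

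**Figure D2:**
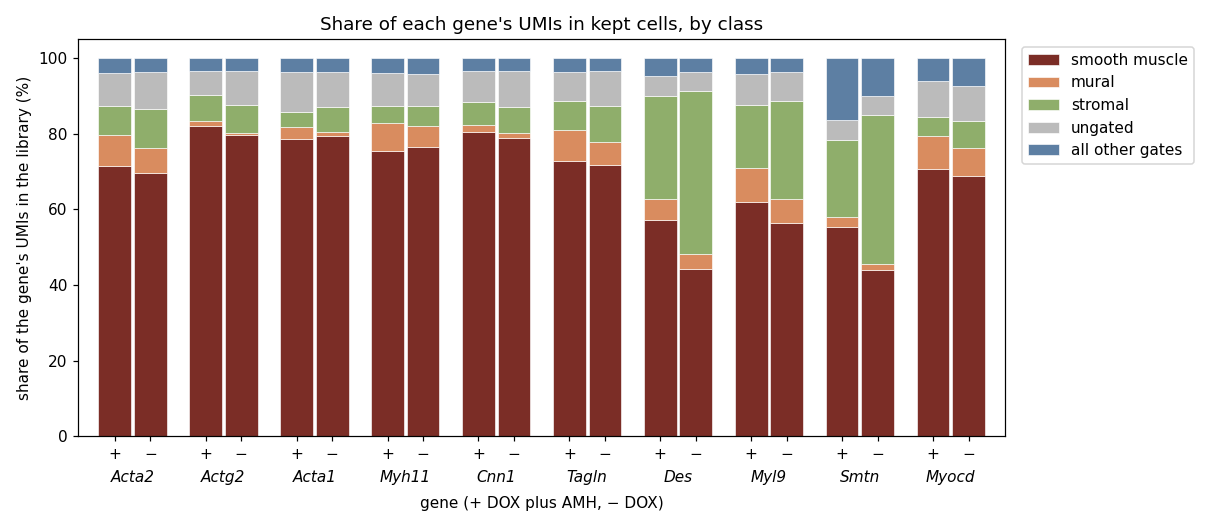
Share of each gene's UMIs (percent of its UMIs over all kept cells of the library) in the smooth muscle, mural and stromal gates, in ungated cells and in all other gates, for DOX plus AMH (left bar, +) and DOX (right bar, −). The smooth muscle gate holds most of every gene except Des and Smtn in DOX, with 44.1% and 43.9%.

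Muscle cells were not alike in these genes. The transcripts Pcp4, a small calmodulin-binding protein, and Tnni2, a troponin of fast skeletal fibres, were used to divide the smooth muscle gate, leaving out cells that also passed the mural gate. Cells with a UMI of Pcp4 and a UMI of Tnni2 numbered 242 in DOX plus AMH and 272 in DOX. Cells with at least 3 Pcp4 UMIs per 10000 but no Tnni2, called Pcp4 alone, numbered 490 and 408. Cells with under 3 Pcp4 UMIs per 10000 and no Tnni2, called Pcp4-low, numbered 119 and 74. Acta1 was 216 and 442 CPM in the first set, 102 and 124 CPM in the second and 13.6 and 10.4 CPM in the Pcp4-low cells, where it rested on 13 and 5 UMIs. The set with Tnni2 thus stood above the Pcp4-low cells by a log2 ratio of 3.98 in DOX plus AMH and 5.41 in DOX. Median depth was 9787 and 10939 UMIs in the first set and 7717 and 3009 in the Pcp4-low cells, so the DOX Pcp4-low cells are shallow. A UMI of Acta2 was found in 79.8% and 79.7% of the Pcp4-low cells, against 100% of the first set in both libraries. The stromal markers summed to 932 and 1219 CPM in the Pcp4-low cells, against 359 and 460 CPM in the first set. Whether cells other than muscle are mixed into the Pcp4-low set was not tested. Tagln ran the other way, at 4880 and 5065 CPM with both transcripts and 8098 and 7574 CPM with Pcp4 alone, and so did Actg2 at 776 and 980 against 1644 and 1279 CPM. Des (789 and 841 against 1413 and 1077 CPM) had the same order. In the Pcp4-low cells Actg2 was 1751 CPM in DOX plus AMH and 563 CPM in DOX, so in DOX it was below both other sets, and the log2 ratio was 1.64 (1.45 to 1.83). The median Pcp4-low cell held 0 UMIs of Actg2 in both libraries, and the top 10% of the cells held 75.0% and 76.4% of them. Acta2, Myl9 and Myocd differed less between these sets, with Acta2 at 8825 and 8300 CPM in the first and 10073 and 9095 CPM in the second.

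Clusters built by the Leiden method without the 10 members gave a like picture. They group the same cells, and Pcp4 and Tnni2 were not left out, so they are no separate check of the split. Muscle with Pcp4 lay mainly in cluster 8 (569 DOX plus AMH and 434 DOX cells) and cluster 15 (544 and 473 cells). Tnni2 was 372 and 616 CPM in cluster 8 and 17.1 and 11.7 CPM in cluster 15. Acta1 was 253 and 449 CPM in cluster 8 and 28.2 and 51.5 CPM in cluster 15, lower in DOX plus AMH in both. Actg2 was 643 and 924 CPM in cluster 8, lower in DOX plus AMH, and 1826 and 1212 CPM in cluster 15, higher in DOX plus AMH. Cnn1 showed the same split, with 782 and 1119 CPM in cluster 8 and 1415 and 1229 CPM in cluster 15. The libraries therefore differ in opposite directions in these 2 clusters for Actg2 and Cnn1, and so they do for Myh11, Tagln, Des and Myl9. Des, for example, was 683 and 793 CPM in cluster 8 and 1441 and 1122 CPM in cluster 15. Acta2, Smtn and Myocd were not lower in DOX plus AMH in either cluster. None of these differences was tested.

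The cells that passed both the smooth muscle and the mural gate, 241 in DOX plus AMH and 133 in DOX, had much Acta2 and little Actg2, Cnn1 and Smtn. Acta2 was 9638 and 10992 CPM there, Tagln 6681 and 7252, and Myh11 2536 and 2220, near the levels of the other muscle cells. Actg2 was 190 and 128 CPM, Cnn1 336 and 322, and Smtn 126 and 102. Of these cells 179 and 110 lay in cluster 19, where Actg2 was 50.9 and 33.6 CPM, Acta1 5.90 and 5.17 CPM and Pcp4 80.4 and 16.2 CPM. Cells of the mural gate alone, 141 and 113, had Acta2 at 3233 and 2644 CPM and Myh11 at 750 and 573 CPM. Cluster 10, which held 89 and 66 of the cells of the mural gate alone, had 0 and 1 UMI of Acta1 in 121 and 81 cells.

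**Figure D3:**
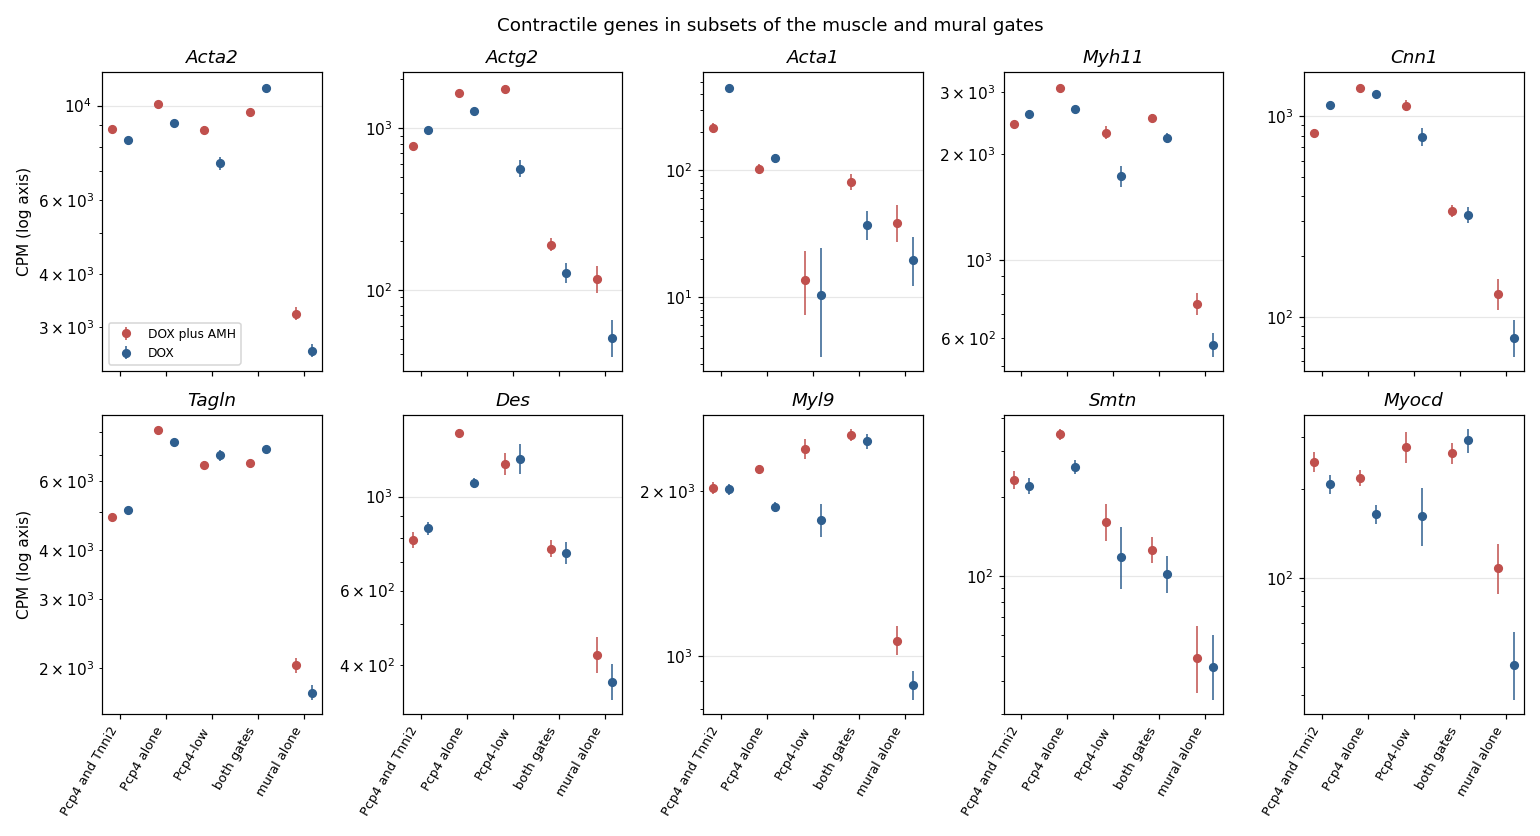
Level of each gene in CPM (log axis, a scale of its own in each panel) in 5 subsets of the smooth muscle and mural gates, for DOX plus AMH (red, left) and DOX (blue, right), with exact 95% Poisson intervals. Acta1 is highest in cells with Pcp4 and Tnni2 (216 and 442 CPM), Tagln and Actg2 are lower there than in cells with Pcp4 alone, and Actg2, Cnn1 and Smtn are low in the cells of both gates and of the mural gate alone.

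Between the libraries, the contractile genes of the smooth muscle gate lay close together apart from Acta1. Acta1 was 1.5-fold or more lower in DOX plus AMH, at 126 CPM (1260 UMIs) against 224 CPM (2065 UMIs) in DOX, a log2 ratio of -0.84 (-0.94 to -0.73). That is 1 of 10 members lower and 0 of 10 higher, beside 7.07% of 14399 counted genes lower and 11.1% higher, so the count is near the background. The other 9 ratios lay between -0.05 (Cnn1) and 0.31 (Myocd, 245 CPM in DOX plus AMH and 197 in DOX), with Actg2 at 0.27, Smtn at 0.26 and Des at 0.23. The median of the members was 0.14 and that of all counted genes 0.12. Scaling by TMM, which sets the bulk of genes level, shifts every ratio in the gate by -0.11. Under it Acta2 was at -0.02 in place of 0.10 and Tagln at -0.07 in place of 0.04, so no direction is read for either, and Acta1 was farther below 0. Acta1 stayed between -1.13 and -0.74 under all 13 alternatives run for it.

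**Figure D4:**
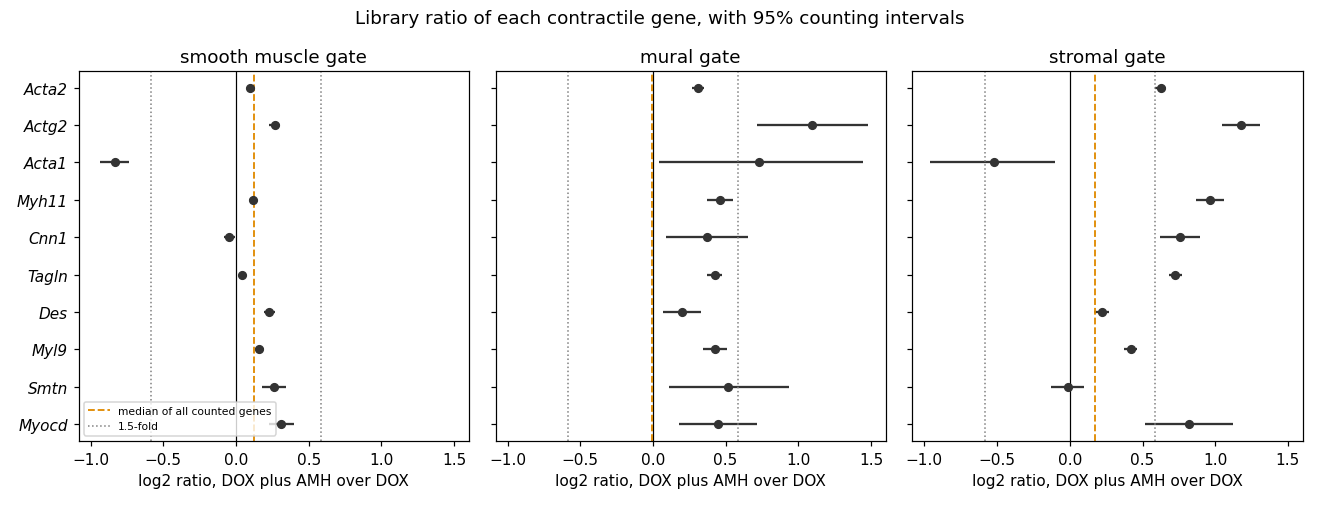
Log2 ratio of CPM, DOX plus AMH over DOX, of each gene in the smooth muscle, mural and stromal gates, with exact 95% binomial intervals of counting error. Dotted lines mark 1.5-fold and the dashed line the median of all counted genes (0.12, -0.01 and 0.17); in the smooth muscle gate Acta1 at -0.84 is the only gene past a dotted line.

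The cells with Pcp4 and Tnni2 are part of the smooth muscle gate. They held 574 of its 1260 Acta1 UMIs in DOX plus AMH and 1462 of its 2065 in DOX, so their ratio is no separate observation. Acta1 was lower in DOX plus AMH within them. It was 216 CPM from 242 cells in DOX plus AMH and 442 CPM from 272 cells in DOX, a log2 ratio of -1.04 (-1.18 to -0.90), and 51.7% and 64.7% of the cells held a UMI, or 25.7% and 37.1% when thinned to 2000 UMIs. Here 1 of 10 members was 1.5-fold lower and 0 higher, beside 8.94% of 11632 genes lower and 11.7% higher. Cnn1 (826 and 1139 CPM, -0.46) and Actg2 (776 and 980 CPM, -0.34) were next lowest, and the median of the members was -0.07 against 0.08 for all counted genes. Tnni2 itself, which defines the set, was 546 CPM in DOX plus AMH and 729 CPM in DOX. In cells with Pcp4 alone the Acta1 ratio was -0.28 (-0.46 to -0.10), and the other 9 ratios lay between 0.10 and 0.42. In the cells of both gates, of which 136 DOX plus AMH and 87 DOX cells belong to the smooth muscle gate, Acta1 was higher in DOX plus AMH, at 81.1 CPM (188 UMIs) against 37.0 CPM (57 UMIs) in DOX, a log2 ratio of 1.13 (0.70 to 1.59). These UMIs lay in 34 of the 241 DOX plus AMH cells and 12 of the 133 DOX cells. The top 10% of the cells held 94.7% and 100% of them. Pcp4 in the cells of both gates was 828 and 274 CPM. The other 105 and 46 cells belong to the mural gate, so no direction is read for the smooth muscle gate's own cells.

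In the mural gate all 10 ratios were above 0, from 0.20 for Des to 1.09 for Actg2, with a median of 0.44 against -0.01 for all counted genes. Actg2 was 105 CPM (202 UMIs) in DOX plus AMH and 49.4 CPM (83 UMIs) in DOX, and Acta1 27.7 CPM (53 UMIs) and 16.7 CPM (28 UMIs), a log2 ratio of 0.73 (0.04 to 1.45). These 2 members were 1.5-fold higher and 0 were lower, beside 10.3% of 11109 genes higher and 13.9% lower. Markers of other cells differed with these ratios. Pcp4 and Tnni2 together were 414 CPM in DOX plus AMH and 154 CPM in DOX in the mural gate, the 7 smooth muscle markers 861 and 681 CPM, the 6 stromal markers 467 and 852 CPM, the 7 vascular endothelial markers 76.2 and 385 CPM and the 7 epithelial markers 20.9 and 115 CPM. None of these lists had a gene at 0 in either library, and their part in the ratios was not tested. Several of the ratios depend on a few cells that lie in another cluster. Of the 159 DOX cells 22, and of the 246 DOX plus AMH cells 0, lay in cluster 11, a cluster of 70 cells found in DOX alone whose highest mean marker score was vascular endothelial. Without cells of vascular endothelial clusters, an alternative added after the data had been seen, the median was 0.16, Acta2 was at -0.04, Des at -0.12, Tagln at 0.08, Actg2 at 0.90 and Acta1 at 1.89. With a stricter gate Acta1 was at -1.26 in place of 0.73, so its direction in mural cells is not settled.

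Stromal cells carried desmin and the light chain beyond free RNA. Per 100 UMIs of Acta2, Des had 52.5 (50.8 to 54.3) in DOX plus AMH and 69.7 (67.8 to 71.6) in DOX in stromal cells, against 16.0 and 13.9 in blood-derived cells and 11.7 and 10.7 in smooth muscle cells. Myl9 had 58.9 and 68.1 per 100 in stromal cells, against 28.1 and 26.4 in blood-derived and 23.2 and 22.2 in smooth muscle cells. Free RNA of a single source keeps its genes in the same proportion in every class, and these proportions differ by more than counting error. A UMI of Des was found in 65.7% and 70.8% of stromal cells and in 53 of 367 and 66 of 470 blood-derived cells, and after thinning to 2000 UMIs in 21.2% and 19.4% against 4.78% and 3.20%. Smtn in the stroma had 9.61 per 100 in DOX plus AMH and an interval of 14.3 to 15.8 in DOX, against 6.50 (4.53 to 9.07) and 4.00 (2.83 to 5.51) in blood-derived cells, and the intervals of these classes meet in DOX plus AMH and lie apart in DOX. Actg2, Acta1, Myh11, Cnn1, Tagln and Myocd had stromal proportions within or below the intervals of blood-derived cells in both libraries.

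**Figure D5:**
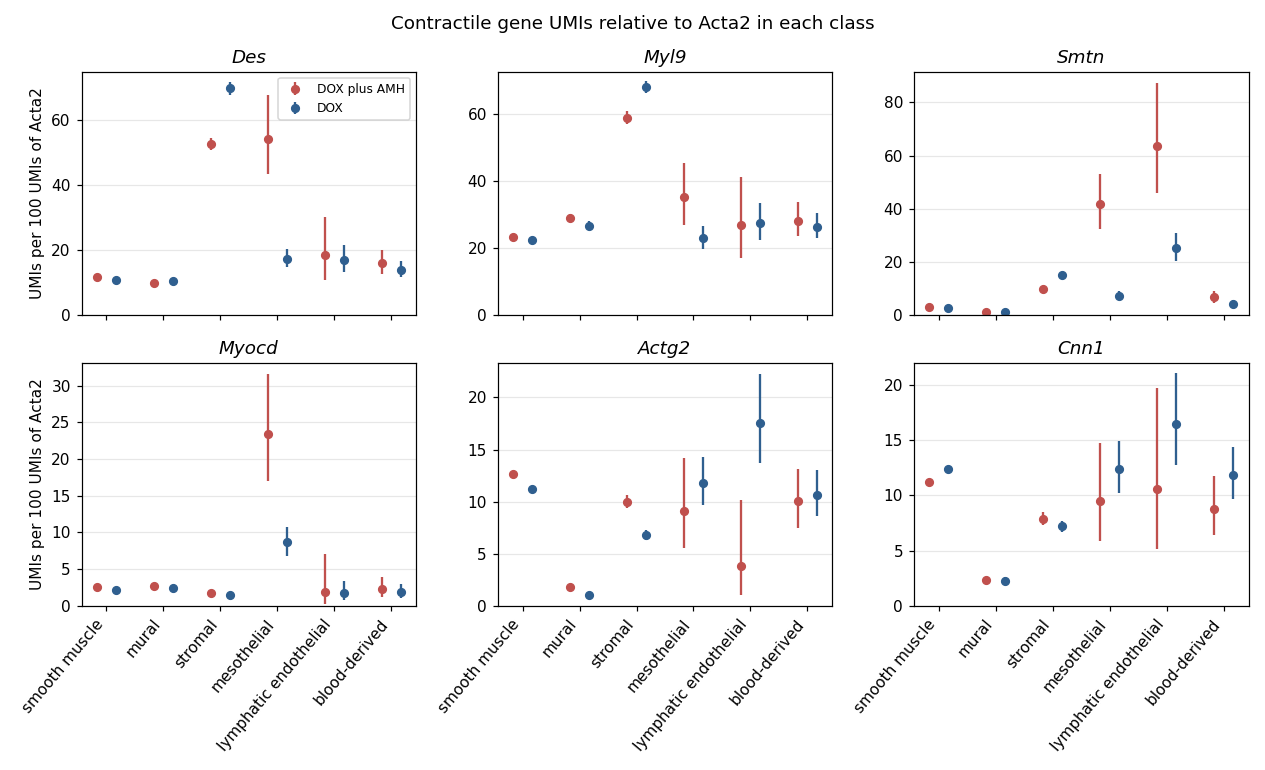
UMIs of 6 genes per 100 UMIs of Acta2 (linear axes from 0, a scale of its own in each panel) in 6 classes, for DOX plus AMH (red, left) and DOX (blue, right), with exact 95% binomial intervals. Des and Myl9 stand high in stromal cells (52.5 and 69.7, 58.9 and 68.1), Smtn in lymphatic endothelial cells (63.5 and 25.1) and Myocd in mesothelial cells (23.4 and 8.63). Mesothelial Des (54.1) and Smtn (41.6) stand high as well in DOX plus AMH, but not in DOX (17.3 and 7.04).

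Across the libraries the stromal gate had 6 of 10 members 1.5-fold higher in DOX plus AMH and 0 lower, beside 15% of 18296 genes higher and 5.43% lower. They were Acta2 (255 and 165 CPM), Tagln (180 and 109 CPM), Cnn1 (20.1 and 11.9 CPM), Myocd (4.42 and 2.51 CPM), Myh11 (42.2 and 21.7 CPM) and Actg2 (25.4 and 11.3 CPM). The median ratio was 0.68, against 0.17 for all counted genes. Median depth in the gate was 10263.5 UMIs in DOX plus AMH and 14786 in DOX, and its part in the ratios was not tested. The mean UMIs per cell were 2.84 and 2.56 for Acta2, 2.00 and 1.69 for Tagln and 0.224 and 0.184 for Cnn1. They were 0.0493 and 0.0389 for Myocd, 0.471 and 0.335 for Myh11 and 0.283 and 0.174 for Actg2. The median stromal cell held 1 UMI of Acta2 in either library, and the top 10% of the cells held 66.2% and 59.5% of its UMIs. Leaving out the 44 DOX plus AMH and 35 DOX cells of the gate that lay in clusters named smooth muscle or mural, an alternative added after the data had been seen, left 1 member 1.5-fold higher (Myocd, at a log2 ratio of 0.71) and a median of 0.25. With clusters in place of gates the median was -0.16. Of the 6 calls 5 thus rest on those few cells. Des (134 and 115 CPM, log2 ratio 0.22), Myl9 (150 and 112 CPM, 0.42) and Smtn (24.5 and 24.7 CPM, -0.02) were not among them.

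The smaller classes differed in how they stood to free RNA. Epithelial cells had Acta2 at 69.1 and 51.0 CPM, under the 143 and 218 CPM of blood-derived cells. In CPM, Smtn alone of the members was above blood-derived cells there, at 12.6 and 11.3 CPM against 9.33 and 8.73 CPM. Epithelial cells were deeper, with medians of 27901.5 and 27680.5 UMIs against 8419 and 8069, which lowers the CPM of an equal count. In mean UMIs per cell, 10 members in DOX plus AMH and 8 in DOX were above blood-derived cells. For Acta2 that mean was 3.30 and 2.26 against 1.55 and 2.07. Per 100 UMIs of Acta2, epithelial Smtn was 18.3 and 22.2, against 6.50 and 4.00 in blood-derived cells. Mesothelial cells had Acta2 at 69.9 CPM in DOX plus AMH and 425 CPM in DOX, but the median cell held 1 UMI in both and the top 10% of the DOX cells held 86.1% of the UMIs. In DOX all 10 members were above the blood-derived CPM in mesothelial cells, from 1.69 to 9.09 times, and in DOX plus AMH Des (1.65 times), Smtn (3.11 times) and Myocd (4.99 times) were. Per 100 UMIs of Acta2, mesothelial Myocd was 23.4 (17.0 to 31.6) in DOX plus AMH and 8.63 (6.85 to 10.8) in DOX, against 2.28 and 1.85 in blood-derived cells, and Tagln 98.3 and 95.6 against 69.2 and 62.3. Lymphatic endothelial cells had Acta2 at 110 and 234 CPM, and Acta1 at 0 and 12 UMIs, where a count of 0 allows up to 3.17 CPM. In DOX 32 of the 107 lymphatic cells lay in cluster 21, a cluster of 1 DOX plus AMH and 40 DOX cells, and without them DOX Acta2 was 106 CPM. Vascular endothelial cells had Acta2 at 249 and 400 CPM, and 349 CPM in DOX without the 20 cells of cluster 11. There Acta2, Myh11, Tagln, Des, Myl9, Smtn and Myocd were 1.73 to 3.74 times the blood-derived CPM in both libraries. Actg2 was under it in both (0.796 and 0.560 times). Without the cells of cluster 11, DOX Myocd fell from 15.1 to 3.66 CPM, under the 4.03 CPM of blood-derived cells. DOX Myh11 fell from 108 to 62.2 CPM, against 57.8 CPM in blood-derived cells. Acta2, Tagln, Des, Myl9 and Smtn stayed above the blood-derived level.

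The genes that work with the members were followed in the smooth muscle gate as a list of 29 contractile partners, the kinases, phosphatase subunits, tropomyosins, filament linkers and non-muscle actins and myosins. Of the 29, 0 were 1.5-fold higher and 0 lower, beside 11.1% of 14399 counted genes higher and 7.07% lower. Their median log2 ratio was 0.05, against 0.12 for all counted genes. The highest ratios were those of Ppp1r12a, the targeting subunit of myosin phosphatase (1050 CPM in DOX plus AMH and 786 in DOX, 0.42), Actb, a cytoskeletal actin (2262 and 1799 CPM, 0.33), and Csrp1, a LIM protein of muscle (738 and 593 CPM, 0.32). The lowest were those of Cryab, a small heat shock protein (138 and 170 CPM, -0.30), Tagln2 (44.8 and 52.6 CPM, -0.23) and Actg1, the other cytoskeletal actin (988 and 1094 CPM, -0.15). Those with the most counts were Myl6, the essential light chain (5577 and 5380 CPM, 0.05), and the tropomyosins Tpm1 (3148 and 3442 CPM, -0.13) and Tpm2 (2908 and 2976 CPM, -0.03).

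Of the 11 regulators, 1 was 1.5-fold higher and 0 lower in the smooth muscle gate. Of the 14399 counted genes 11.1% were higher and 7.07% lower, so the count is near the background. The median ratio was 0.19, against 0.12 for all counted genes. The higher one was Prdm6, a transcriptional repressor, on 32 UMIs in DOX plus AMH and 15 in DOX (0.97, 0.04 to 1.96). Next were Mef2d (52.8 and 41.9 CPM, 0.34) and Srf, serum response factor itself (18.7 and 15.5 CPM, 0.26, interval -0.06 to 0.59). The lowest were Mrtfb (59.1 and 63.3 CPM, -0.10), Gata6 (48.5 and 50.7 CPM, -0.06) and Mrtfa (38.4 and 38.7 CPM, -0.01), of which the Mrtf pair, like myocardin, are coactivators of serum response factor. The intervals of all 3 span 0. Mef2c, Mef2a and Tead1, transcription factors with the most counts in the list, were at 230 and 201, 213 and 206, and 207 and 179 CPM.

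The genes whose levels ran most like the members' were found over 16 points, 8 classes in 2 libraries, by Pearson's r of log2(CPM + 1) with the mean profile of the members among 10922 genes. The members' own r with that mean ran from 0.82 (Smtn) to 0.99 (Tagln and Acta2). The closest other genes were Fbxl22 (0.985; 336 CPM in DOX plus AMH and 391 in DOX in the smooth muscle gate), Flna, Sh3bgr, Hspb7, Myom1, Jph2, Tpm2, Dmd, Kcne4 and Ppp1r12a, the last at 0.95. Points of the same library share its free RNA and depth, and r is a description only. Of the 10, Dmd, which encodes dystrophin, had the largest ratio between libraries in the smooth muscle gate, at 2537 and 1539 CPM (0.72).

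Among the muscle cells outside the mural gate, 861 in DOX plus AMH and 756 in DOX, the members did not all go together from cell to cell. On log values Acta2 went with Tagln (r of 0.80 and 0.78) and Myl9 (0.79 and 0.79), while Myocd had an r with Acta2 of 0.06 and 0.11 and Acta1 with Tagln 0.04 and 0.06. The median over the 45 pairs was 0.36 and 0.28. Acta1 had an r with Acta2 of 0.18 and 0.20. The cells of each r share a library and differ in depth, and the part of low counts in the small values was not tested.

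Genes of other muscles and of fat were checked in the same cells. The skeletal list summed to 35.7 CPM in DOX plus AMH and 27.3 in DOX in the smooth muscle gate, led by Tnnt3 (18.6 and 13.4 CPM) and Tnnc2 (11.4 and 9.68 CPM), while Myh4 was at 0 in both and Myh1 at 1 and 0 UMIs. In the cells with Pcp4 and Tnni2 the list summed to 44.3 and 39.6 CPM. The myosins of fast skeletal fibres on the list, Myh4 and Myh1, were thus at or near 0 in the gate. The cardiac list summed to 139 and 139 CPM in the smooth muscle gate, almost all of it Tnnt2 (107 and 89.8 CPM) and Ryr2 (26.2 and 48.0 CPM), with Myl7 at 0 in both. The fat list summed to 0.599 and 0.109 CPM.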

How the data were processed

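Single cells of mouse uterus were sequenced in 2 libraries with a 3′ droplet kit, and per the labels each library pooled 5 uteri. The authors deposited 1 matrix of UMI counts per library, raw and not normalized, made with Cell Ranger 7.0.0 on mm10 per the submitters' processing notes. Whether intronic reads were counted is not given in the sources used here. The matrices held 8083 DOX plus AMH and 9258 DOX barcodes with 97887259 and 129530270 UMIs.

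Barcodes below 1000 UMIs or 500 detected genes, or above a mitochondrial share of 15%, were dropped. Scrublet (scanpy 1.11.5, expected rate 0.08) removed 327 and 440 doublets. The expected rate was set after its default had called none in DOX plus AMH. A cell joined the class with the highest marker score where that score was at least 0.2 and at least 2 markers had a UMI. The score and its limit were set after the data had been seen, and names come from rebuilt marker classes, not from an annotation by the authors. Of the smooth muscle gate 175 and 162 cells lay within 0.05 of the limit. Leiden clusters (2000 variable genes without the members, 30 components, 15 neighbours, resolution 1, igraph 0.11.9) served as an alternative.

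UMIs were summed per class and library. A gene was counted in a comparison with at least 20 UMIs over both libraries, and called higher or lower at 1.5-fold. With 1 library per group no test was made. Intervals are exact at 95% (scipy 1.17.1), and a count of 0 allows up to 3 counts. TMM factors came from edgeR 4.0.16. The computation was tested on simulated data. Named partner and regulator genes are the 3 highest, 3 lowest and 3 most counted of each list. The members and lists were chosen with earlier results of these data known.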

Additional observations from a re-analysis of the deposited data

Results flagged for a closer look

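Among the smooth muscle, mural and stromal gates, the only ones set against each other here, the log2 ratio of DOX plus AMH over DOX had opposite signs for Acta1 and Cnn1, with intervals of counting error on opposite sides of 0. The difference was not tested in any of these cases. Acta1 in the mural gate stood 1.57 above its ratio in the smooth muscle gate, at 0.73 against -0.84, and the mural ratio was -1.26 with a stricter gate. Cnn1 in the mural gate stood 0.42 above its ratio in the smooth muscle gate, at 0.37 against -0.05, and with a stricter gate both signs turned, to -0.12 and 0.12. Cnn1 in the stromal gate stood 0.81 above the smooth muscle gate, at 0.76 against -0.05, and was at 0.17 in the stroma without cells of muscle and mural clusters. The smaller classes were not set against the smooth muscle gate in this way, and signs differ there too. Acta2, for example, was at -0.69 (-0.82 to -0.56) in vascular endothelial cells and -0.60 (-0.76 to -0.45) in blood-derived cells, against 0.10 in the smooth muscle gate.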

How the results depend on the processing

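Acta1 was lower in DOX plus AMH in the smooth muscle gate under all 13 alternatives run for it, and 10 of 10 members stayed at least 10-fold over blood-derived cells in each setting run. The median ratio there, 0.14, was 0.17 with a stricter cell filter, 0.11 with Leiden clusters, 0.0241 with TMM, 0.0887 as a mean over cells and 0.0916 with thinned cells. At 2-fold 0 members were lower. Cnn1 was at 0.12 with the stricter gate, Acta2 at -0.0172 with TMM, and Tagln at -0.0247 with clusters, -0.0716 with TMM, -0.0183 as a mean over cells and -0.0655 thinned. The partner median was -0.0594 with TMM. The Acta1 ratio between muscle sets in DOX plus AMH was 4.97 as a mean over cells. It could not be computed on thinned cells, because the Pcp4-low set had 0 UMIs in the random draw used. In another draw 1.04% of its 96 cells held one.

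In the mural gate the count of higher members, 2, was 0 with a stricter gate (1 lower), 1 with a looser one, 4 with clusters, 4 with blood-derived CPM subtracted, 7 at 1.3-fold, 1 at 2-fold and 4 without cells of both gates. The share over all genes was computed at 1.5-fold in the main setting only. The counts under the alternatives, here and for the stroma below, thus have no such share beside them. With the stricter gate Acta1 was at -1.26 and Cnn1 at -0.12. With clusters Acta2 was at -0.14, Tagln at -0.0219, Des at -0.0588 and Myl9 at -0.19. Without cells of vascular endothelial clusters the median was 0.16, Acta2 -0.0401 and Des -0.12.

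In the stromal gate the count of higher members, 6, was 3 without a cell filter, 3 with doublets kept, 0 with clusters, 1 with blood-derived CPM subtracted, 3 thinned, 1 at 2-fold and 1 without cells of muscle and mural clusters. The count lower, 0, was 1 with clusters, with TMM, thinned and at 1.3-fold. The median, 0.68, was 0.53 without a cell filter, 0.54 with doublets kept, -0.16 with clusters, 0.51 with TMM, 0.39 with blood-derived CPM subtracted, 0.52 as a mean over cells, 0.45 thinned and 0.25 without cells of muscle and mural clusters. With clusters Acta2 was at -0.15, Actg2 at -0.50, Myh11 at -0.17 and Cnn1 at -0.47. Other than where cells were left out, the cause was not tested. No paired analysis was possible because each group is 1 library. Animals, pools and library preparation cannot be told apart from the treatment.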

Other observations

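UMIs of Acta2 were also found in cells outside the compared classes. The 322 DOX plus AMH and 300 DOX cells that passed no gate had Acta2 at 5362 and 6188 CPM, and 193 and 145 of them lay within 0.05 of the limit of a gate. Acta2 was 1702 CPM in 107 DOX plus AMH erythroid-gate cells and 999 CPM in 12 DOX ones, and 1172 and 2813 CPM in 16 and 11 glial-gate cells. A few cells carried most of these: the top 10% of the cells held 75.2% and 81.4% of the Acta2 UMIs in the erythroid gate and 96.2% and 63.2% in the glial gate. The median cell held 3 and 1 UMIs in the erythroid gate and 0 and 1 in the glial gate. The 435 squamous epithelial cells of DOX plus AMH had 99.7 CPM, and the DOX library had 6 such cells, with 3 UMIs of Acta2.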
